A study of Mus musculus with 4 samples.

Results

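*Tbx21*, *Gbp6* and *Gbp10* had lower expression values in Th9 cells from *Areg*-/- mice as compared to WT Th9 cells. These 3 genes were taken by name from a table of 515 genes. They were chosen on the values described here, since the table holds only genes that its authors marked as different between the genotypes, and the 3 genes were picked with their lower values known. The direction of their difference is therefore a description and was not tested.

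The table was made from 4 samples of C57BL/6 mice, 2 from WT and 2 from *Areg*-/- animals, which lack amphiregulin, a ligand of EGFR. Naïve CD4+ T cells of mice aged 6 to 12 weeks were activated through CD3 and CD28 and differentiated into Th9 cells by TGF-β1 and IL-4 over 3 days, in both genotypes alike. Each gene has 1 FPKM value per genotype (fragment counts corrected for transcript length and library size), in which both samples of the genotype are combined. The spread between samples and the depth of each sample are unknown from these values, so no error stands beside any of them. The WT column carries a name that speaks of no doxycycline, and it was taken to be the WT samples of this series. None of 8 markers of CD4+ T cells was among the listed genes, so the labelled cell type could not be checked in these values. Genes outside the table were not analysed here.

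*Tbx21* encodes T-bet, the transcription factor that drives Th1 differentiation and the production of IFN-γ, and IL-4 and TGF-β1 are both known to restrain it. Guanylate-binding proteins such as those of *Gbp6* and *Gbp10* are large GTPases that are induced by interferons, above all IFN-γ, and that attack the vacuoles of intracellular pathogens. In the mouse the *Gbp* genes form one cluster on chromosome 3 and another on chromosome 5, the latter made of close copies that arose by duplication.

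*Gbp6* and *Gbp10* lie side by side on chromosome 5 of GRCm38, both on the minus strand. *Gbp10* (ENSMUSG00000105096.1) runs from 105215699 to 105239533 and *Gbp6* (ENSMUSG00000104713.4) from 105270702 to 105293698, and the longest coding transcript of each has 11 exons in GENCODE M21. Their coding sequences are both 1833 bases long without the stop codon and align without a gap. They differ at 30 positions, which leaves 98.4% identical, with a longest identical run of 421 bases. The differences are dense near the 3′ end of the coding sequence. The following 120 bases of 1 exon run from coding position 1526 to 1645. They are shown because they hold 12 of the 30 differences, the most of any coding stretch of this length within 1 exon. Untranslated sequence was not searched for such stretches. Capitals mark the bases that differ, and both are written 5′ to 3′ on the minus strand from GENCODE transcripts (GRCm38, chr5:105274192-105274311 for *Gbp6* and chr5:105218392-105218511 for *Gbp10*).
Gbp6: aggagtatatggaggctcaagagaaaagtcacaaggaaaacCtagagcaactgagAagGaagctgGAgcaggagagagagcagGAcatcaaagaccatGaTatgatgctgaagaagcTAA
Gbp10: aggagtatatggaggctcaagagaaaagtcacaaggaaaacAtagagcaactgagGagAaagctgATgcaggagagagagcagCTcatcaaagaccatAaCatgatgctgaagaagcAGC

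A further annotated gene, *Gm43302*, spans both, from 105214907 to 105293695 on the same strand. Of its 10 coding exons, 9 are those of *Gbp6* and 1 is the last coding exon of *Gbp10*. It carries the *Gbp6* base at 28 of the 30 differing positions and the *Gbp10* base at the other 2, which are the 2 nearest the 3′ end. All positions in capitals above have the *Gbp6* base in *Gm43302*. Its exons cover 66.3% of the bases of the longest coding transcript of *Gbp6* and 50.8% of those of *Gbp10*. *Gm43302* is not among the 515 genes. When the transcripts of each gene were cut into windows of 50 bases, 70.7% of the windows of *Gbp6* and 84.1% of those of *Gbp10* occurred unchanged in a transcript of another gene. The corresponding share was 0% for *Tbx21*. The read length is not given in the sources used here. The values of *Gbp6* and *Gbp10* therefore rest on how reads were divided among near-identical genes, and both are uncertain to that extent, whereas *Tbx21* shares no such window. In the deposited table *Gbp6* and *Gbp10* also have the same locus, which spans both genes.

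**Figure D1:**
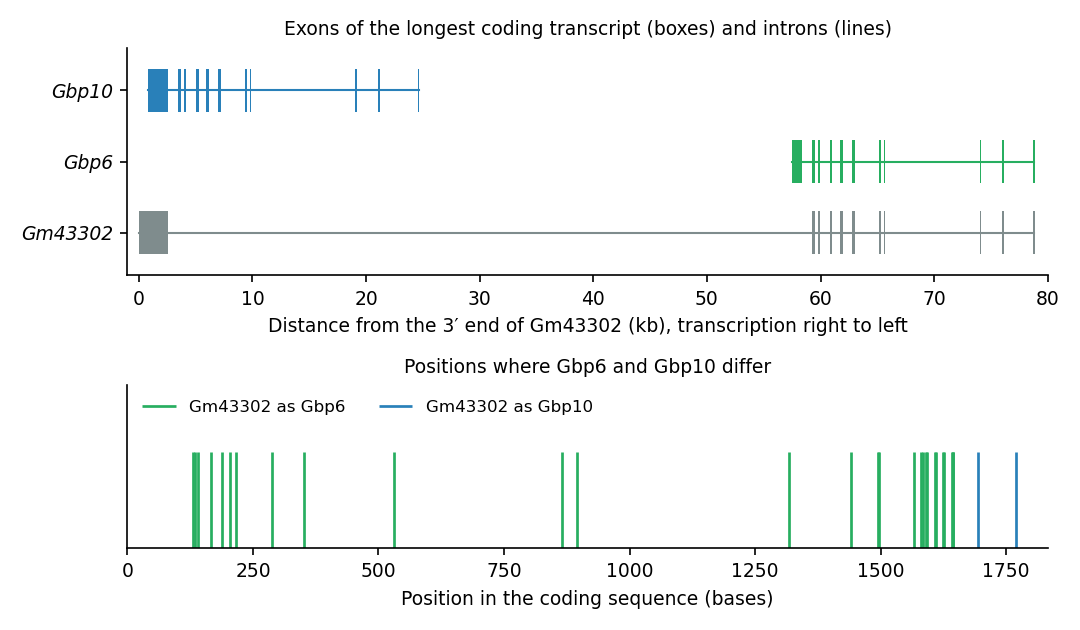
The upper panel draws the exons of *Gbp10*, *Gbp6* and *Gm43302* as boxes against the distance from the 3′ end of *Gm43302* in kb, and the lower panel marks the 30 coding positions at which *Gbp6* and *Gbp10* differ, by the base that *Gm43302* carries. *Gm43302* uses exons of *Gbp6* at its 5′ side and the 3′ end of *Gbp10*, and 28 of the marks are of the *Gbp6* kind.

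*Tbx21* (ENSMUSG00000001444.2) is a gene of 6 exons on chromosome 11 (minus strand, 97098071 to 97115331) that overlaps no other annotated gene. It reached 51.1 FPKM in WT cells as compared to 35.7 FPKM in the *Areg*-/- cells, so that 69.8% of the WT level was left. The log2 fold change of *Areg*-/- over WT was -0.52. *Tbx21* was the most highly expressed of the 3 genes per length of transcript, at position 58 of the 515 genes in WT cells and at position 91 in *Areg*-/- cells. Its difference was small among the listed genes. Ordered from the largest decrease, it stood at position 126 of 159 genes with a lower value, whose median log2 fold change was -0.73 and of which the smallest was -0.41. As RNA of all cells was pooled in a library, fewer cells that express a gene and less of its RNA per cell cannot be told apart.

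*Gbp6* reached 12.4 FPKM in WT cells as compared to 6.98 FPKM without Areg. This left 56.5% of the WT level, a log2 fold change of -0.82, and put *Gbp6* at position 66 of the 159 lower genes. *Gbp10* was the least expressed of the 3 genes, with 1.67 FPKM in WT and 0.496 FPKM in *Areg*-/- cells. Its log2 fold change of -1.76 was the most negative of the 3, a 3.38-fold lower value, at position 15 of the 159 lower genes. In *Areg*-/- cells *Gbp10* was among the weakest listed genes, at position 504 of 515 by level. A pseudocount of 1 FPKM brought its log2 fold change to -0.84, close to the -0.74 that *Gbp6* had on the same scale, so the distance between both copies rests on values near or under 1 FPKM.

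**Figure D2:**
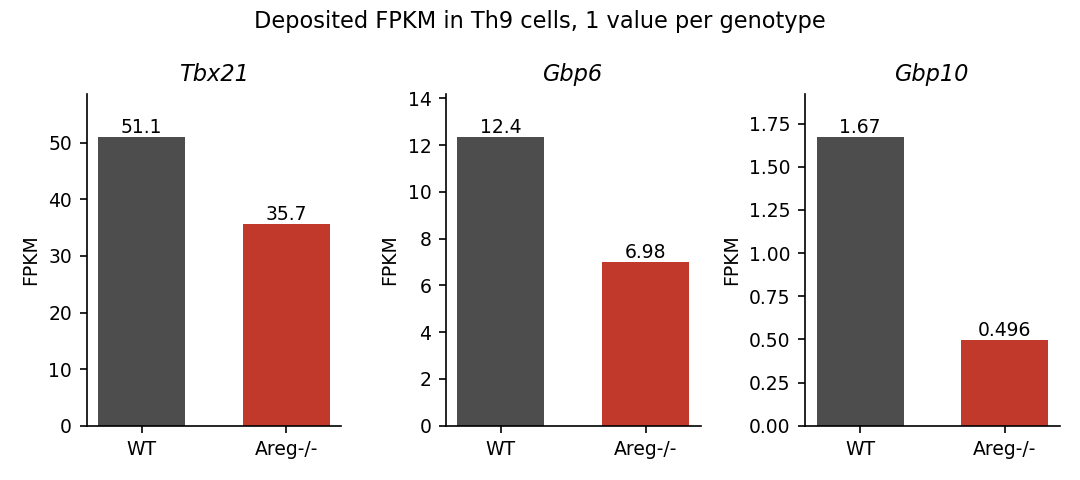
Bars give the deposited FPKM value of each gene in WT and *Areg*-/- Th9 cells, on an axis of its own that starts at 0. There are no error bars because the table has 1 value per genotype, and the *Areg*-/- bar is the lower in each panel, at 69.8%, 56.5% and 29.6% of WT.

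The level of *Gbp10* was 13.5% of that of *Gbp6* in WT cells and 7.10% in *Areg*-/- cells. The sum of both copies, which does not depend on how reads were split between the 2 genes other than through their lengths, was 14.0 FPKM in WT and 7.48 FPKM in *Areg*-/- cells. This is a log2 fold change of -0.91, or a 1.88-fold lower value. The sum still leaves out any reads given to *Gm43302*. *Gbp6* carried most of the sum in both genotypes, and the fold change of the sum lay close to its own.

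Of the 515 listed genes, 30.9% had a lower value in *Areg*-/- cells and 9.90% were lower by more than 2-fold. All 3 genes belong to the former because they were picked so, and *Gbp10* alone was lower by more than 2-fold. Nothing is read from these shares about the 3 genes, since the same contrast chose them. After subtraction of the median log2 fold change of all listed genes (0.62), 159 genes were lower and 36 higher by more than 2-fold, in place of 51 and 130. That median is taken over genes marked as different, so it shows no shift of all genes.

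**Figure D3:**
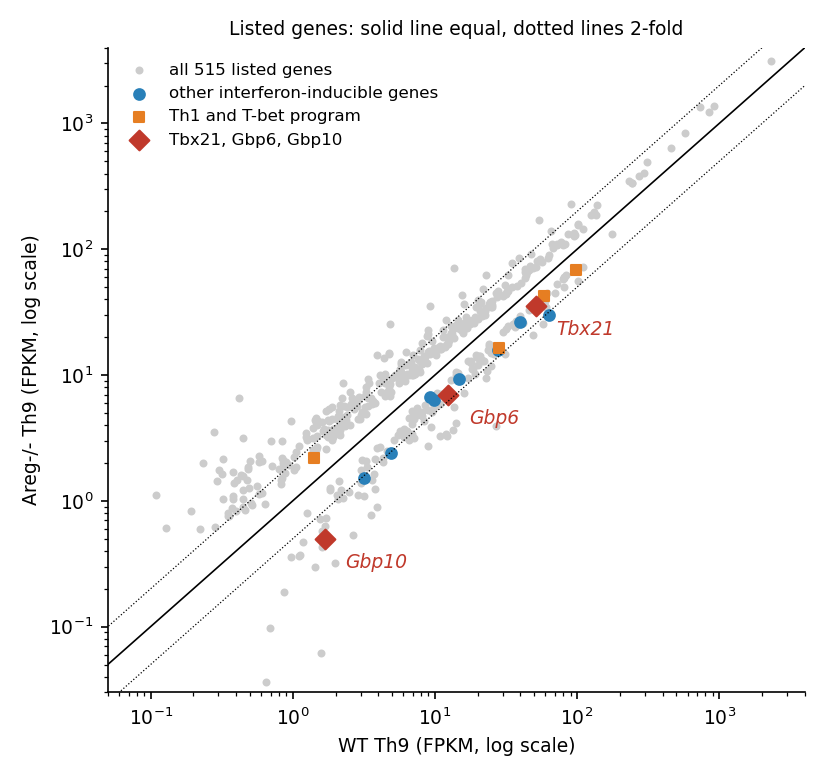
Each point is 1 of the 515 listed genes, with its FPKM value in WT cells on the horizontal and in *Areg*-/- cells on the vertical log axis. *Tbx21*, *Gbp6* and *Gbp10* lie below the line of equal values, and *Gbp10* alone of the 3 lies below the lower dotted line, which marks a 2-fold lower value. The empty band along the line of equal values is where genes were not listed.

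Among the 11 genes of the *Gbp* family, 2 of the 6 on chromosome 5 and 0 of the 5 on chromosome 3 were listed. The coding sequences of the other chromosome 5 genes were 90.3 to 91.7% identical to those of *Gbp6* and *Gbp10* over aligned bases, and those of the chromosome 3 genes 61.0 to 74.4%. Other interferon-inducible GTPases were next looked at, with a list of 12 genes. Of these, 3 were listed and all 3 were lower in *Areg*-/- cells. Their median log2 fold change was -0.83, as compared to 0.62 over all listed genes. *Iigp1*, an immunity-related GTPase on chromosome 18, had the highest level of them, with 64.0 FPKM in WT and 30.0 FPKM in *Areg*-/- cells. *Tgtp1*, of the same family, was at 28.0 FPKM in WT cells and at 15.7 FPKM in *Areg*-/- cells. *Tgtp1* shares 81.2% of its windows of 50 bases with other genes, mostly its copy *Tgtp2*, and overlaps 2 other annotated genes, so its value is uncertain. *Irgm1*, which regulates other members of that family, was at 14.7 FPKM in WT cells and at 9.37 FPKM in *Areg*-/- cells.

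Of 44 further interferon-inducible genes, 5 were listed and these 5 were lower, with a median log2 fold change of -0.62. *Isg20*, which encodes an exonuclease, was at 3.18 FPKM in WT cells and at 1.52 FPKM in *Areg*-/- cells. *Ifih1*, which encodes the viral RNA sensor MDA5, had 4.90 and 2.38 FPKM. *Zbp1*, whose product senses Z-form nucleic acids, was at 39.6 FPKM in WT and 26.4 FPKM in *Areg*-/- cells. *Slfn2*, a gene of T cell quiescence, had 9.84 and 6.39 FPKM and *Parp14*, an ADP-ribosyltransferase, 9.21 and 6.72 FPKM. Without *Gbp6* and *Gbp10*, 8 interferon-inducible genes of these lists were thus in the table, 8 of them lower and 0 higher, and 3 of them lower by more than 2-fold. Over all 515 listed genes, 30.9% were lower and 9.90% lower by more than 2-fold. All gene lists used here were chosen with earlier results of these data known, so their counts are a description and not a test. The log2 fold changes of the 8 genes ran from -1.09 to -0.45. *Ifitm3*, an interferon-inducible inhibitor of virus entry that is in none of the lists and was chosen with its values in view, was higher, with 7.84 FPKM in WT and 12.9 FPKM in *Areg*-/- cells. Among further genes outside the lists, given below, *H2-Ab1*, *H2-DMb1* and *H2-Ob* were higher, whereas *Serpina3g*, *Serpina3f* and *Ube2l6* were lower. The uniform direction thus holds for the lists only. Most of the lists could not be seen, as 57 of the 65 genes were not in the table. *Ifng*, the gene of IFN-γ, was not in the table either. The paper reports that the induction of IFN-γ did not differ between *Areg*-/- and WT Th9 cells. Of 19 genes of interferon signalling, that is receptors, kinases, STAT and IRF factors and their inhibitors, 1 was listed. This was *Socs3*, an inhibitor of JAK-STAT signalling, and it was higher, with 32.4 FPKM in WT and 61.9 FPKM in *Areg*-/- cells.

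A list of Th1 genes was looked at next, which holds no granzyme or perforin gene. *Gzmb* and *Prf1*, picked after their values were seen and given below, were higher in *Areg*-/- cells. Of 28 genes of the Th1 and T-bet program, 4 were listed, 3 lower and 1 higher. Over all listed genes, 30.9% were lower and 69.1% higher. The other 24 genes of the program were not listed, so their values were not seen. *Lta*, which encodes lymphotoxin-α, was at 98.1 FPKM in WT cells and at 68.9 FPKM in *Areg*-/- cells, and the chemokine gene *Ccl4* 59.0 and 42.7 FPKM. For *Tnf* the values were 28.1 and 16.4 FPKM. *Prdm1*, which encodes the repressor Blimp-1, was higher, with 1.41 and 2.20 FPKM. The median log2 fold change of the 4 genes was -0.49, as compared to 0.62 over all listed genes, and none of them differed by more than 2-fold. Among 14 regulators of other helper T lineages, 3 were listed, 1 lower and 2 higher, to be set beside the same shares of all listed genes. The other 11, among them *Spi1*, *Irf4*, *Batf* and *Gata3*, were not listed and their values were not seen. *Bcl6*, the factor of follicular helper T cells, was lower, with 1.56 FPKM in WT and 0.723 FPKM in *Areg*-/- cells. *Maf* and *Ahr* were higher, with 16.1 and 36.7 FPKM for *Maf* and 7.28 and 11.5 FPKM for *Ahr*.

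**Figure D4:**
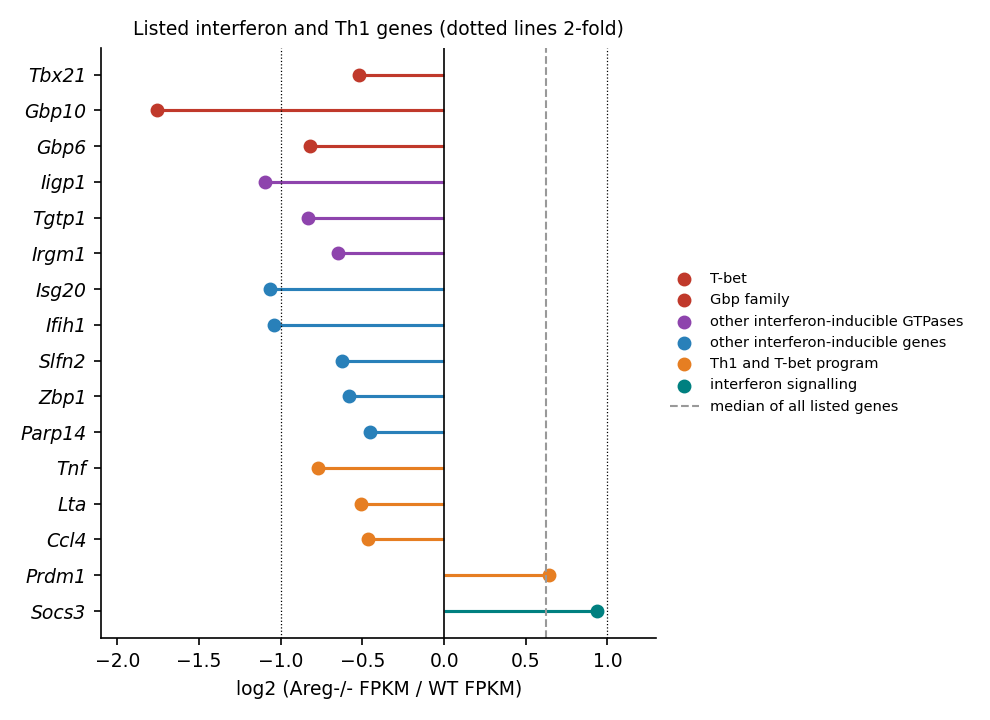
Points give the log2 ratio of *Areg*-/- over WT FPKM for *Tbx21* and for every listed gene of the *Gbp*, interferon and Th1 lists, with colours for the lists, dotted lines at 2-fold and a dashed line at the median of all listed genes (0.62). The 10 genes from the lists of interferon-inducible genes, *Gbp6* and *Gbp10* included, lie left of 0, whereas *Prdm1* and *Socs3* lie to the right.

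Promoter sequences from RefSeq (GRCm38.p6, 250 bases before to 50 bases after the gene start) were searched on both strands for the gamma-activated site TTCNNNGAA, the core of the interferon-stimulated response element GAAANNGAAA, and the T-box motif AGGTGTGA. *Tbx21* and 5 of the 10 listed interferon-inducible genes were matched by symbol. *Gbp6*, *Gbp10*, *Iigp1*, *Zbp1* and *Parp14* were not matched. Of the 5 genes, 3 held the response element core (*Irgm1*, *Tgtp1* and *Ifih1*) and 2 the gamma-activated site (*Tgtp1* and *Isg20*). Of all 32851 promoter windows in the table, 3.44% held the former and 8.30% the latter, and 1.28% held the T-box motif, which none of the 5 genes had. These percentages count windows, whereas the 5 genes were counted by gene. *Isg20* had more than 1 window and held the gamma-activated site in only 1 of them. In *Irgm1* 2 matches overlapped, starting 30 and 24 bases before the gene start. In *Tgtp1* the gamma-activated site and the response element core started 88 and 77 bases before it. The match in *Ifih1* started at base 33 after the gene start. *Tbx21* had no match to any of the 3 motifs in its window. The 250 bases before the gene start are shown for *Irgm1* and *Tgtp1*, the interferon-inducible GTPase genes with a match, and for *Tbx21*, in which these letters are missing. They lie on the minus strand at chr11:48871421-48871670, chr11:48992247-48992496 and chr11:97115332-97115581, are written 5′ to 3′, and have the matches in capitals. The gene starts meant here are those of RefSeq. In GENCODE M21 *Irgm1* begins at 48871683 and *Tgtp1* at 48994172, so both of their windows lie inside the gene as annotated there. A match is a match of letters and was not tested for binding.
Irgm1: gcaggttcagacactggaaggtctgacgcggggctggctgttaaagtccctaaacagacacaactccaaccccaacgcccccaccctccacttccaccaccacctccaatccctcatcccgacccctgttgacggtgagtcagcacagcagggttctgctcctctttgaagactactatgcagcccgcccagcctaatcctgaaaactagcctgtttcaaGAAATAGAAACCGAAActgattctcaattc
Tgtp1: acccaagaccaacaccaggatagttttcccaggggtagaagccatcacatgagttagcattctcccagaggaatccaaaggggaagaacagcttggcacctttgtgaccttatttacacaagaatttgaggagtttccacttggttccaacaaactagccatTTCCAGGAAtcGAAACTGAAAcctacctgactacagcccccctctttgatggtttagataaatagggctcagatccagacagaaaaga
Tbx21: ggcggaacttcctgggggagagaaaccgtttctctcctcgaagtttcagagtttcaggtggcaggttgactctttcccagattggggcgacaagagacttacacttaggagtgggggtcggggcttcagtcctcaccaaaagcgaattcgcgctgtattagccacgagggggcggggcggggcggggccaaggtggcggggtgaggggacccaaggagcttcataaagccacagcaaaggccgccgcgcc

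Genes with a pair of values most like each of the 3 were sought by the distance between log2 FPKM values over both genotypes. With 2 values per gene this likeness is coarse. Closest to *Tbx21* were *Gpr65*, an acid-sensing receptor, with 50.1 FPKM in WT and 34.4 FPKM in *Areg*-/- cells (distance 0.059), then *Sh2d1a*, which encodes the adaptor SAP (distance 0.19), and *Gm19585* (0.22). Closest to *Gbp6* were *Lrrc14* (distance 0.17), *Rxra* (0.26) and *Phlda1* (0.30). Closest to *Gbp10* were *Slc1a2* (0.21) and *Mndal* (0.23), and *Mndal* was at 1.60 FPKM in WT cells and at 0.579 FPKM in *Areg*-/- cells.

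The *Gbp* cluster of chromosome 5 shares its chromosome with *Areg*, the targeted gene, which lies from 91139599 to 91148432. *Areg* itself was not among the listed genes, so its loss could not be checked in these values. *Gbp10* starts 14.1 Mb from the end of *Areg*. Of the 26 listed genes on this chromosome, 8 (30.8%) were lower in *Areg*-/- cells, beside 30.9% of all listed genes. These 8 include *Gbp6* and *Gbp10*, which were picked with their lower values known, so nothing is read from this share. Between *Areg* and the *Gbp* cluster lay 8 other listed genes, 3 lower and 5 higher, with log2 fold changes from -1.52 for *Anxa3* to 1.92 for *Plac8*. Whether nearness to the targeted gene has a part in the values of *Gbp6* and *Gbp10* was not tested.

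**Figure D5:**
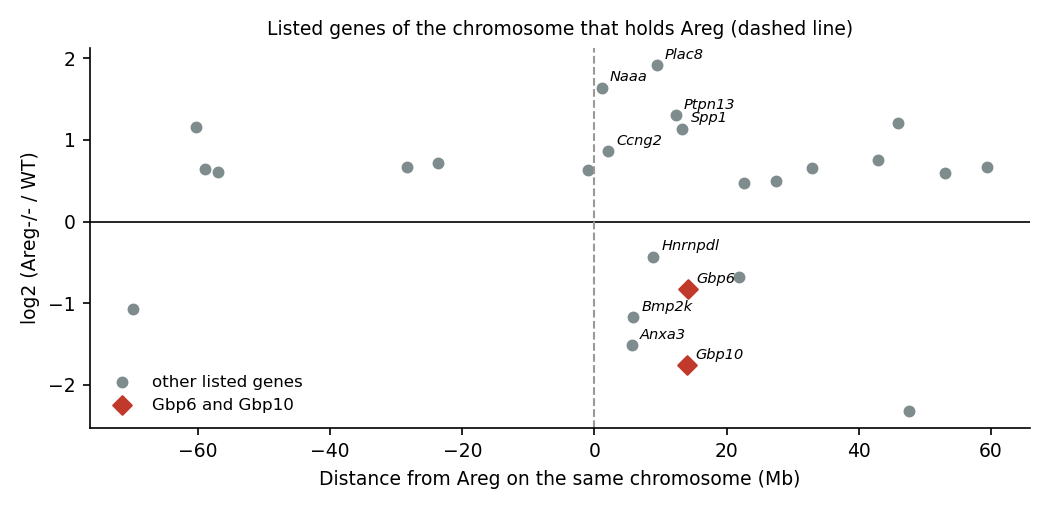
Points are the 26 listed genes on the chromosome of *Areg*, by their distance from *Areg* in Mb and their log2 ratio of *Areg*-/- over WT, with *Gbp6* and *Gbp10* as diamonds. The 8 other genes between *Areg* and the *Gbp* cluster are named and lie on both sides of 0.

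Markers of cells other than CD4+ T cells were mostly not in the table. For CD8+ T cells, NK cells, B cells and myeloid cells 20 markers were looked for, 3 were listed and all 3 were higher in *Areg*-/- cells, as were 69.1% of all listed genes. Their summed level was 3.85 FPKM in WT and 11.2 FPKM in *Areg*-/- cells. *Cd8a* had 2.13 and 3.32 FPKM, the NK receptor gene *Klrd1* 1.44 and 4.40 FPKM, and *Ly6g*, a marker of neutrophils, 0.279 and 3.51 FPKM. Receptor genes outside the lists that NK or myeloid cells can express, picked after their values were seen, were listed as well. *Klrk1*, which encodes NKG2D, was at 1.51 FPKM in WT cells and at 4.34 FPKM in *Areg*-/- cells, *Klrc1*, which encodes NKG2A, 0.702 and 2.97 FPKM, and the chemokine receptor gene *Ccr2* 0.378 and 1.69 FPKM. The other 17 markers, among them *Ncr1* and *Csf1r*, were not in the table, so their levels were not seen, and the part of such cells in the values of *Tbx21*, *Gbp6* and *Gbp10* was not tested.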

How the data were processed

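RNA of in vitro differentiated Th9 cells from 2 WT and 2 *Areg*-/- samples was sequenced as paired-end poly(A) libraries. According to the submitters' notes and the paper's methods, reads were checked with FastQC, aligned with TopHat2 and Bowtie2 to GRCm38, and quantified and compared with HTSeq-count and Cuffdiff. The deposited FPKM values come from the authors' Cuffdiff run, 1 per genotype with both samples combined, and depth per sample cannot be derived from them. The authors' deposited columns of log2 fold changes, of a test score, of p-values and of q-values hold their own comparison of the genotypes and were not used. All 515 genes in the table are marked there as different.

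Fold changes were recomputed from the FPKM values of *Areg*-/- over WT without a pseudocount. Since each genotype has 1 value, no test, interval or adjusted p-value was computed, and differences are given as ratios. Alternatives were pseudocounts of 0.1 and 1, subtraction of the median log2 fold change, a minimum of 1 FPKM in a genotype, fold limits of 1.5 and 4, and the sum of *Gbp6* and *Gbp10*.

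Coordinates, exons and transcripts come from GENCODE M21 on GRCm38, in which all 515 identifiers were found with the version ignored. Coding sequences were aligned globally with Biopython 1.88 (match 1, mismatch -1, gap opening -5, gap extension -0.5). Windows of 50 bases were compared with all transcripts in the direction of transcription. Whether reads were counted by strand is not given in the sources used here.

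Named genes were the 3 genes, all listed genes of the gene lists, the 3 nearest genes of each by distance between log2 FPKM pairs, and listed genes between *Areg* and the *Gbp* cluster. One of the nearest genes is not reported here. The 3 genes and the lists were chosen with earlier results of these data known. The ratio calculation was checked on WT values multiplied by known factors without noise, which tests the arithmetic only. Python 3.11.15, numpy 2.4.6, pandas 2.3.3 and matplotlib 3.10.9 were used.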

Additional observations from a re-analysis of the deposited data

How the results depend on the processing

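The log2 fold changes of *Tbx21*, *Gbp6* and *Gbp10* stayed negative under each alternative tried, and none of the 39 named genes changed sign. None of these alternatives could have turned a lower value into a higher one, since a pseudocount keeps the sign and the median subtracted was positive. On log2(FPKM + 0.1) the values were -0.52, -0.81 and -1.57 in that order, on log2(FPKM + 1) they were -0.51, -0.74 and -0.84, and after centring on the median of listed genes they were -1.14, -1.45 and -2.38. With *Gbp6* and *Gbp10* added up it was -0.91. Without a spread between samples, any move of these values counts as a change. Of listed genes lower by more than 2-fold there were 51, and 23 on log2(FPKM + 1), 159 after centring, 109 with a fold limit of 1.5 and 10 with one of 4. Of those higher by more than 2-fold there were 130, and 54, 36, 276 and 17 in the same order. The minimum of 1 FPKM changed no value of the 3 genes. No paired analysis was possible because samples were combined into 1 value for each genotype, and for the same reason leaving out each replicate was not run. The paper gives an approximate number of reads per sample. The read count behind each value cannot be derived from FPKM, which bears most on *Gbp10* with its low FPKM.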

Other observations

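The genes given here are in none of the lists and were picked after their values were seen, and 69.1% of all listed genes were higher in *Areg*-/- cells. Among genes that interferons can induce, *Serpina3g* and *Serpina3f*, which encode serine protease inhibitors, had 57.5 and 13.7 FPKM in WT and 25.3 and 5.60 FPKM in *Areg*-/- Th9 cells. *Ube2l6*, which encodes the conjugating enzyme of ISG15, was at 18.2 FPKM in WT cells and at 11.1 FPKM in *Areg*-/- cells. *H2-Ab1*, which encodes a chain of an MHC class II molecule, was higher in *Areg*-/- cells, with 16.0 FPKM in WT and 26.1 FPKM in *Areg*-/- cells. *H2-DMb1* and *H2-Ob*, whose products take part in the loading of peptides on such molecules, had 1.27 and 3.08 FPKM and 1.48 and 3.31 FPKM. No list of this pathway was made, so how many of its genes were listed was not counted.

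*Gzmb*, which encodes granzyme B, was at 736.9 FPKM in WT cells and at 1362 FPKM in *Areg*-/- cells, *Gzma* had 13.7 and 70.8 FPKM, *Gzmc* 14.6 and 27.2 FPKM, and the perforin gene *Prf1* 3.41 and 9.27 FPKM. Granzymes and perforin are known from cytotoxic lymphocytes. No list of such genes was made either, and the spread between samples is unknown for each value.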
